A study of Homo sapiens with 6 samples.

Results

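The genes described here encode proteins of the red cell membrane: 3 proteins of the membrane skeleton and its anchors (EPB41, EPB42, ANK1), 2 transport proteins (SLC4A1, RHAG) and 3 glycophorins (GYPC, GYPB, GYPE). They were taken by name, 8 of the 19864 protein-coding genes that GENCODE release 29 places on chromosomes 1 to 22 and X. For each gene, peaks of nascent transcription lying 500 bp or less from a start of one of its GENCODE transcripts were collected and are called start peaks. Peaks within 100 kb of the gene body that lay near no annotated start of any gene are called distal peaks.

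The data came from PRO-seq, a method that labels the RNA held by engaged RNA polymerases with biotin and sequences it. The cells were K562, an established human leukaemia line that the labels describe as lymphoblastoid, kept in RPMI with serum and given no treatment. There were 6 libraries in 3 groups of 2 biological replicates, at least 3 passages apart per the labels. PRO-seq 1M used the published protocol on 1M permeabilized cells, qPRO-seq 1M a quick protocol on the same input, and qPRO-seq 250k the quick protocol on 250k cells. PCR ran for 11 cycles in the 1M libraries and 14 in the 250k libraries, so input and cycle number cannot be told apart between the qPRO-seq groups. K562 is 1 cell line, so no group carries variation between donors.

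Each group had 1 deposited list of dREG peaks. dREG is a machine-learning tool that recognises regulatory elements by the shape of the run-on signal on the plus and minus strands, which at promoters and enhancers points away from the element in both directions. On the chromosomes used, 24707 peaks were listed for PRO-seq 1M, 38177 for qPRO-seq 1M and 15562 for qPRO-seq 250k. Wherever 3 values follow each other below, they keep this order of lists. Each peak carries a score with no fixed unit. It is given here as a percentile, the percent of peaks in the same list with that score or a lower one. Read counts are not part of the lists, so depth is unknown, and whether a list is long because its libraries were deep cannot be told apart. Both replicates of a group share 1 list, so replicate spread could not be measured and groups were compared without a test.

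A mature red cell carries a flat network of spectrin and actin under its membrane. Ankyrin, the product of ANK1, ties spectrin to the anion exchanger encoded by SLC4A1, and the product of EPB42 steadies that link. The product of EPB41 ties the spectrin and actin junctions to glycophorin C, the product of GYPC. RHAG encodes the glycoprotein that carries the Rh antigens to the surface, and GYPB encodes the carrier of the S and s antigens. GYPE is a close copy of GYPB that arose by duplication of the same locus. Many of these genes are switched on late in erythroid differentiation, under GATA1, KLF1 and TAL1, which bind GATA, CACCC and E-box words in DNA.

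The lymphoblastoid label was set against markers of cell types. All 6 erythroid markers (GATA1, TAL1, KLF1, NFE2, HBG2 and ALAS2) were active at a start in every list, HBG2 in qPRO-seq 250k at the far upstream start of its long transcripts alone. Of the 7 B lymphoid markers reported here, EBF1 had a start peak in both 1M lists, and CD79A, CD79B, MS4A1, PAX5, CD22 and POU2AF1 in none. None of 5 T lymphoid markers (CD3D, CD3E, CD3G, CD2 and LCK) had a start peak in any list. Of 6 myeloid markers, SPI1 had one in all lists, CEBPA in both 1M lists, and CSF1R, MPO, CD14 and LYZ in none. Peak lists do not measure how much of a gene's RNA is made, so these are counts of active starts and not levels.

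Upstream sequence is shown for 4 of the genes. GYPB and GYPE were chosen because a peak was listed at one and not at the other, EPB42 and EPB41 as starts with a peak in every list, the first with the lower CpG content. Sequences are from the RefSeq promoter table, build GRCh38.p14, written 5′ to 3′ on the strand of the gene and ending before its first annotated start. Capitals mark a GATA word, meaning the word AGATAA, the word AGATAG, the word TGATAA or the word TGATAG, read on either strand. Sites of 30 bases show the words that lie closer to the start or past the first annotated start.
GYPB upstream chr4:144019381-144019630 (minus strand): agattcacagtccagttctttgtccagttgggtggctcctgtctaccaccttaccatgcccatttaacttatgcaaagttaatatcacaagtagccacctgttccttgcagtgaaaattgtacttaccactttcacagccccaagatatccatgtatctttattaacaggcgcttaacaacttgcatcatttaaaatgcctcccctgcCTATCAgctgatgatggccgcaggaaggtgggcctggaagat
GYPE upstream chr4:143905564-143905809 (minus strand): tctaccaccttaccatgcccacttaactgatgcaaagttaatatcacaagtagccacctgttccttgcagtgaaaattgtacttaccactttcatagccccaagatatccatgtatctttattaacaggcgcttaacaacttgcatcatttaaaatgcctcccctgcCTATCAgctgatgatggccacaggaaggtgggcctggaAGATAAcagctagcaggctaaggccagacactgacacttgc
EPB42 upstream chr15:43221126-43221268 (minus strand): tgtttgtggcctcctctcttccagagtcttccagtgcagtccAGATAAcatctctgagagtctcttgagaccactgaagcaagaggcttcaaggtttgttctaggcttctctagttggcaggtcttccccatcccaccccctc
EPB41 upstream chr1:28886850-28887090 (plus strand): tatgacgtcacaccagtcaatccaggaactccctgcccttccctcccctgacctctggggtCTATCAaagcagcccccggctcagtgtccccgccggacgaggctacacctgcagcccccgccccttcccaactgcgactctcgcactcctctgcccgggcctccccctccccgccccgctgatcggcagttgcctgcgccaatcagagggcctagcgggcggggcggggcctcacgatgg
GYPB site chr4:144019367-144019396 (minus strand): ggtgggcctggaAGATAAcagctagtaggc
EPB42 site chr15:43221062-43221091 (minus strand): tcctggcacaagAGATAAaatgaacagggt
RHAG site chr6:49636853-49636882 (minus strand): agtcctttgttcTTATCAacatctcacagc
GYPC site chr2:126656082-126656111 (plus strand): aatgaagtctgcCTATCTccgggccagagc

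The promoter table matched 6 of the 8 genes, with 8 entries. No window of ANK1 or SLC4A1 was examined. In the 250 bp before the first-listed start, all 6 held at least 1 GATA word. GYPB and GYPE are near-identical copies and are not independent. Of the 22131 protein-coding promoter windows of that length, 17.8% held one. Among windows with a CpG ratio (described below) under 0.6, as at GYPB, GYPE, RHAG and EPB42, the share was 30.4%. The second EPB41 start held none. GATA words at the EPB41, EPB42 and RHAG starts lay inside a start peak in every list, the GYPC word inside the peaks of both 1M lists, and the GYPB words inside the single qPRO-seq 1M peak. The same words at GYPE lay in no peak. The word CACCC, searched on both strands, occurred in the windows of EPB42, RHAG, GYPC and GYPB and in 58.4% of all windows. The E-box CANNTG, also searched on both strands, occurred at EPB41, GYPC, GYPB and GYPE and in 58.1% of all windows. No window of the 6 genes held TATAAA, a word present in 9.0% of all windows. A match is a description of the letters and not evidence of binding.

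CpG content differed between the starts. The ratio of CpG dinucleotides observed to the number expected from the C and G content was 0.625 at EPB41, 0.752 at its second start and 0.643 at GYPC. It was 0.165 at GYPB, 0.0970 at RHAG, 0.0829 at GYPE and 0.0552 at EPB42. The median over all windows was 0.711, above each of these except the second EPB41 start. Across all windows, 56.8% of the 13329 with a ratio of 0.6 or more had a peak in all lists, against 9.68% of the 8802 with a lower ratio. RHAG and EPB42 were thus among the minority of CpG-poor starts with a peak in all lists. Among those CpG-poor starts with a peak in all lists, 22.5% held a GATA word, and among CpG-poor starts without any peak 31.4% did, so the word was no more frequent at CpG-poor starts that had peaks.

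Start peaks were present for 5 of the 8 genes in PRO-seq 1M, 6 in qPRO-seq 1M and 4 in qPRO-seq 250k. Over all protein-coding genes the share with a start peak was 52.9%, 54.5% and 44.0%. EPB41, EPB42, ANK1 and RHAG had a start peak in all lists, as did 43.1% of all genes. GYPC had one in both 1M lists alone, a pattern of 7.86% of genes, and GYPB in qPRO-seq 1M alone, a pattern of 2.97%. SLC4A1 and GYPE had none in any list, as did 43.5% of genes. A count of 4 of 8 is close to the share over all genes, so the number of active genes here is read as near the background. The count fell to 2 (EPB41 and ANK1) under each of 3 stricter settings. These were a deposited p of 0.01 or less, lists of equal size, and scores no lower than the median of the list. Such settings remove peaks, and the share of all genes under them was not measured, so the fall has no background beside it. With lists of equal size, EPB42 was lost from PRO-seq 1M and RHAG from qPRO-seq 1M.

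The scores of the start peaks were often low. The median percentile of each gene's top start peak was 37.8, 70.3 and 54.6 over the genes here that had one, against 76.4, 80.7 and 68.2 over all genes with a start peak. EPB41 and ANK1 lay above the all-gene median in all lists, and EPB42 did so in qPRO-seq 1M. RHAG, GYPC and GYPB lay below it in each list where they had a peak. With 4 to 6 genes per list these medians rest on few values and no test was made.

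**Figure D1:**
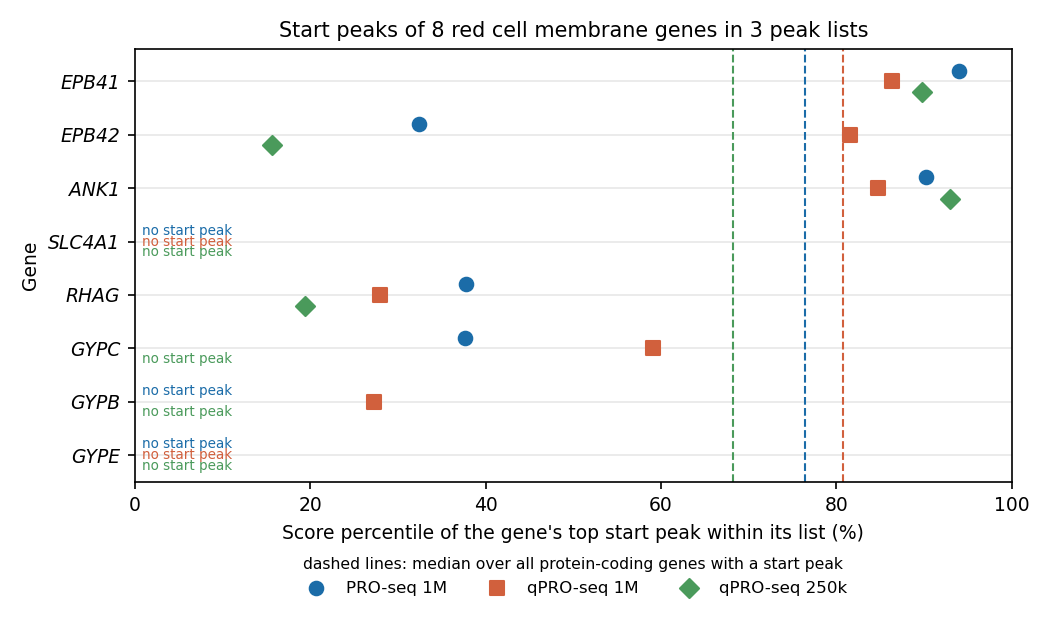
Score percentile of the top start peak of each gene (x axis, percent) for the 8 genes (y axis) in the 3 lists, with dashed lines at the median over all protein-coding genes with a start peak. EPB41 and ANK1 sit between 84.7 and 94.0 in all lists, and RHAG sits between 19.4 and 37.8. SLC4A1 and GYPE have no point.

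EPB41 (ENSG00000159023.21, chr1:28887091-29120046, plus strand) encodes the protein that ties spectrin and actin to the membrane, and it is annotated with 29 transcript starts. Joining starts that lie within 500 bp of each other gave 14 groups of starts. The 5′-most group, at chr1:28887091-28887172, carried the start peak of all lists, at percentiles 94.0, 86.4 and 89.8. The peaks were chr1:28886651-28887480 in PRO-seq 1M, chr1:28886831-28887370 in qPRO-seq 1M and chr1:28886571-28887290 in qPRO-seq 250k. Their centres as given in the lists lay 16, 6 and 6 bp downstream of the nearest annotated start, closer than the median distance of 52, 59 and 50 bp over all genes. In qPRO-seq 1M a separate short peak, chr1:28886571-28886810 at percentile 18.7, covered the upstream end that the other lists joined to the main peak. A second group of starts, chr1:28914544-28914626, lay 27.5 kb into the gene and had a peak in qPRO-seq 1M alone, chr1:28914281-28914570 at percentile 21.1. The other 12 groups had no peak in any list. Initiation at EPB41 was therefore listed at the first annotated starts, with 1 low-scored call further in.

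ANK1 (ENSG00000029534.20, chr8:41653220-41896762, minus strand) encodes the erythroid ankyrin and is known for alternative promoters used in different tissues. Its 12 annotated starts formed 8 groups. The 5′-most start, at position 41896762, had no peak in any list. The group at chr8:41797593-41797622, which lies 99.1 kb into the annotated gene, had a start peak in all lists at percentiles 90.2, 84.7 and 93.0. These peaks were chr8:41797231-41798060, chr8:41797441-41798080 and chr8:41797351-41797940, with centres 38, 108 and 68 bp upstream of the nearest start. qPRO-seq 1M divided the region and listed a further peak, chr8:41796811-41797420 at percentile 64.3, on the downstream side. None of the 6 groups of starts further downstream, including the group of 5 transcripts at chr8:41665207-41665286, had a peak. ANK1 was thus listed as active at 1 internal group of starts in all lists, and at neither end of the gene.

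EPB42 (ENSG00000166947.13, chr15:43197227-43221125, minus strand) encodes the partner protein of the anion exchanger. Of its 4 groups of starts, the 5′-most, chr15:43221009-43221125, had a peak in all lists and the other 3 had none. The percentiles were 32.4, 81.6 and 15.6, a wider spread over the lists than that of EPB41, ANK1 or RHAG. The qPRO-seq 1M peak was chr15:43221071-43221720, and the qPRO-seq 250k peak was chr15:43221051-43221520. PRO-seq 1M instead listed a pair of peaks, chr15:43221171-43221680 at percentile 32.4 and chr15:43220971-43221150 at percentile 12.1. The listed centre of the shorter one, 43221160, fell outside its own interval. The centres of the top peaks lay 295, 225 and 155 bp upstream of the nearest start, further than the medians over all genes. Both GATA words of the EPB42 sequences printed above lay inside a peak in every list.

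**Figure D2:**
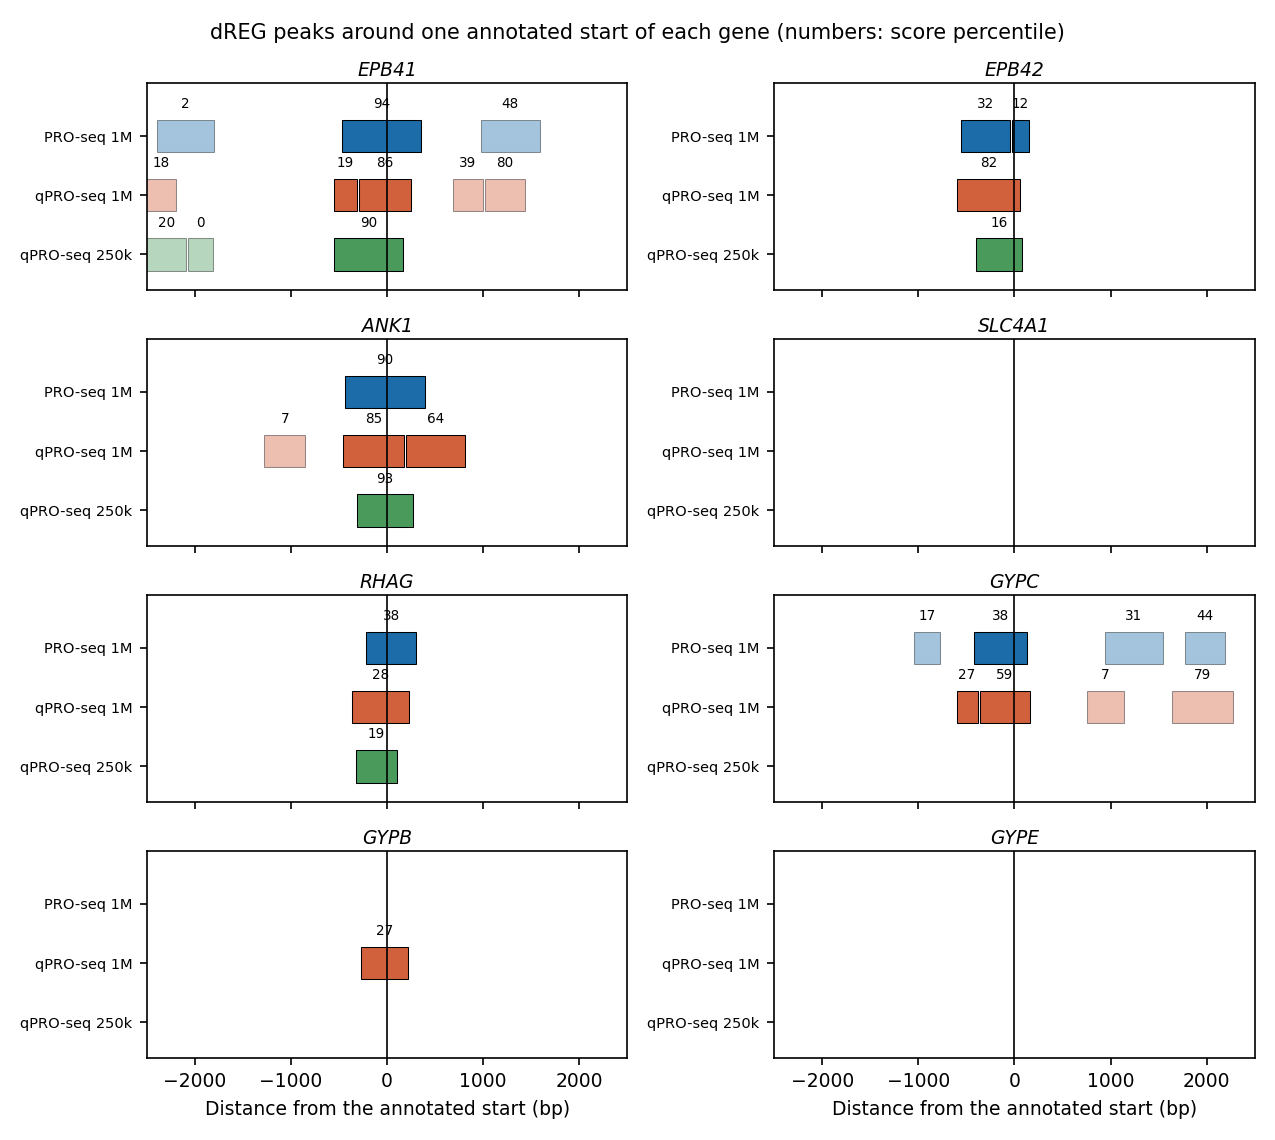
Peaks of the 3 lists (rows) by distance in bp from 1 annotated start of each gene (x axis), in the direction of transcription, with the score percentile above each bar. Full colours are start peaks and pale colours distal peaks. EPB42 is covered by a pair of peaks in PRO-seq 1M and by 1 in each qPRO-seq list, and the panels of SLC4A1 and GYPE are empty.

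SLC4A1 (ENSG00000004939.14, chr17:44248385-44268141, minus strand) encodes the anion exchanger, the most abundant membrane protein of red cells. Its annotated starts formed 3 groups, at chr17:44268134-44268141 and at positions 44262066 and 44249868, and none had a peak in any list. A window of 1000 bp around the starts gave the same. No distal peak lay inside its body either.

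RHAG (ENSG00000112077.16, chr6:49605158-49636884, minus strand), which encodes a gas or ammonium channel of the Rh family, had a start peak in all lists. The peaks were chr6:49636581-49637100, chr6:49636651-49637250 and chr6:49636781-49637210. Their percentiles were 37.8, 28.0 and 19.4, low in each list, with deposited scores of 0.521, 0.413 and 0.408. Centres lay within 66 bp of the nearest start in all lists (4 bp downstream, 66 bp upstream and 26 bp upstream). All 3 intervals overlapped at the first group of starts, chr6:49636839-49636884, and the group 21.6 kb further in had no peak.

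GYPC (ENSG00000136732.15, chr2:126655933-126696670, plus strand) had 1 group of starts, chr2:126655933-126656189. PRO-seq 1M listed chr2:126655711-126656260 at percentile 37.7, and qPRO-seq 1M listed chr2:126655771-126656290 at 59.1 beside a shorter peak, chr2:126655531-126655750, at 27.0. No peak of qPRO-seq 250k lay there. The nearest distal peak to fall outside the window, chr2:126655091-126655360 in PRO-seq 1M, ended 573 bp before the gene and stood at percentile 17.2.

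GYPB (ENSG00000250361.8, chr4:143996104-144019345, minus strand) had 1 start peak in qPRO-seq 1M alone, chr4:144019131-144019620, at percentile 27.3 with a deposited score of 0.410 and a deposited p of 0.00524. GYPE (ENSG00000197465.13, chr4:143870867-143905563, minus strand) had no start peak. No distal peak lay within 100 kb of either gene in any list. GYPE thus had neither kind of peak in any list, as did 15.8% of all protein-coding genes. The window of the first-listed GYPB start aligned to that of GYPE over 209 bases without a gap. Of these, 205 were the same and 4 differed, an identity of 98.1%. The window of the second GYPB start aligned over 244 bases, of which 239 were the same (98.0%). Both genes hold CTATCA, overlapped by an E-box, and both hold AGATAA nearer the start, at GYPB in the second window alone. Because reads from such copies can be placed at either, the peak at GYPB and the lack of one at GYPE are uncertain as to which copy was transcribed.

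Start peaks of these genes recurred between lists, at shares read as near those of all peaks near a start. In PRO-seq 1M, 6 of 6 were overlapped by a peak of another list, in qPRO-seq 1M 8 of 10, and in qPRO-seq 250k 4 of 4. Over all peaks near a start the shares were 93.2%, 83.9% and 98.7%. The pair without a counterpart in qPRO-seq 1M were the GYPB peak and the peak at the second EPB41 group of starts.

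EPB41, ANK1, SLC4A1, RHAG and GYPC had a distal peak in every list, and EPB42 had one in qPRO-seq 1M. That made 5, 6 and 5 of the 8 genes, where 54.0%, 75.2% and 38.0% of all genes had a distal peak within 100 kb. The median number of distal peaks per gene was 2.00, 4.50 and 1.00 here, against 1.00, 2.00 and 0 over all protein-coding genes. Over genes with a start peak in all lists it was 1.00, 3.00 and 0, and over genes with none in any list 0, 1.00 and 0. Distal peaks numbered 23, 40 and 11 around the 8 genes, and 18, 30 and 10 with a start window of 1000 bp. Joined across the lists wherever they overlapped, those of the 500 bp window formed 40 regions, of which 20 lay inside the body of the gene. All lists shared 9 of the regions (22.5%), against 16.2% of the 16938 distal regions of the whole genome. Both 1M lists alone shared 7 (17.5%, against 18.1%). Found in qPRO-seq 1M alone were 19 (47.5%, against 55.3%), and in PRO-seq 1M alone 5 (12.5%, against 5.69%). None was in qPRO-seq 250k alone (against 1.25%), in qPRO-seq 250k and qPRO-seq 1M alone (against 3.15%) or in qPRO-seq 250k and PRO-seq 1M alone (against 0.295%). Most regions present in 1 list thus came from the longest list. One of the 40, upstream of SLC4A1, also held start peaks of another gene, and regions of that kind are not among the 16938. Counted by peak, 18 of 23 PRO-seq 1M distal peaks were overlapped by another list (78.3%, Wilson 95% interval 58.1% to 90.3%, against 87.8% of all distal peaks). In qPRO-seq 1M 21 of 40 were (52.5%, 37.5% to 67.1%, against 46.5%), and in qPRO-seq 250k 11 of 11 (100%, 74.1% to 100%, against 94.9%). The intervals cover counting error alone, and each contains the genome-wide share.

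**Figure D3:**
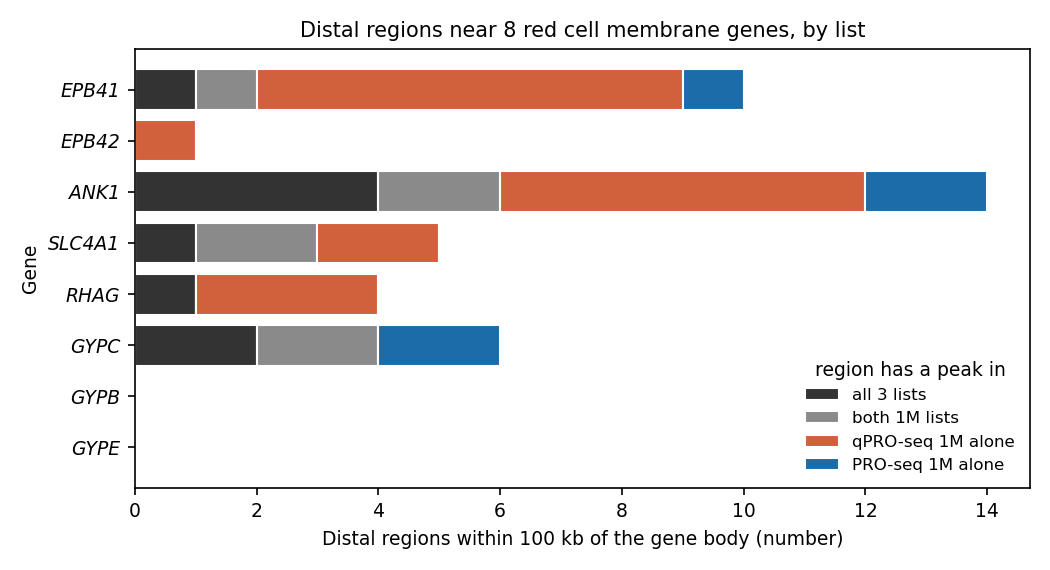
Number of distal regions within 100 kb of each gene (x axis) by gene (y axis), with the bar divided by the lists that hold a peak of the region. ANK1 has 14 regions and EPB41 10, and GYPB and GYPE have none.

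ANK1, which also had the widest window searched (444 kb), had the most distal regions by number, 14, of which 13 lay inside its body and 4 were in all lists. It held 9, 13 and 5 distal peaks. Per 100 kb of the window searched that was 2.03, 2.93 and 1.13 peaks, where the 75th percentile over all genes was 0.854, 1.64 and 0.453. By this density GYPC (2.49) was above ANK1 in PRO-seq 1M and SLC4A1 (3.19) was above it in qPRO-seq 1M. The density counts every distal peak whatever its score. Of the 7 SLC4A1 peaks in qPRO-seq 1M, 3 lay in a region that also held start peaks of another gene, SLC25A39. The top region of ANK1, chr8:41828741-41829310, stood at percentiles 74.8, 90.5 and 59.5. It adjoined the regions chr8:41828401-41828730 and chr8:41827941-41828400, each also in all lists. This block lay upstream of the active internal start, between it and the 5′-most start, which had no listed peak. It overlapped AC027702.1, a lincRNA annotated on the same strand. The start of AC027702.1, at 41829934, lay more than 500 bp but less than 1000 bp from the top region. A start window of 1000 bp therefore did not count the peaks of the top region as distal. The next region, chr8:41791911-41792920, was in an intron downstream of the active start, at percentiles 67.8, 87.5 and 81.4. Inside the body, the distal regions of ANK1 lay on both sides of the active start, from 51.1 to 150 kb into the gene. Whether they were denser near that start was not tested.

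**Figure D4:**
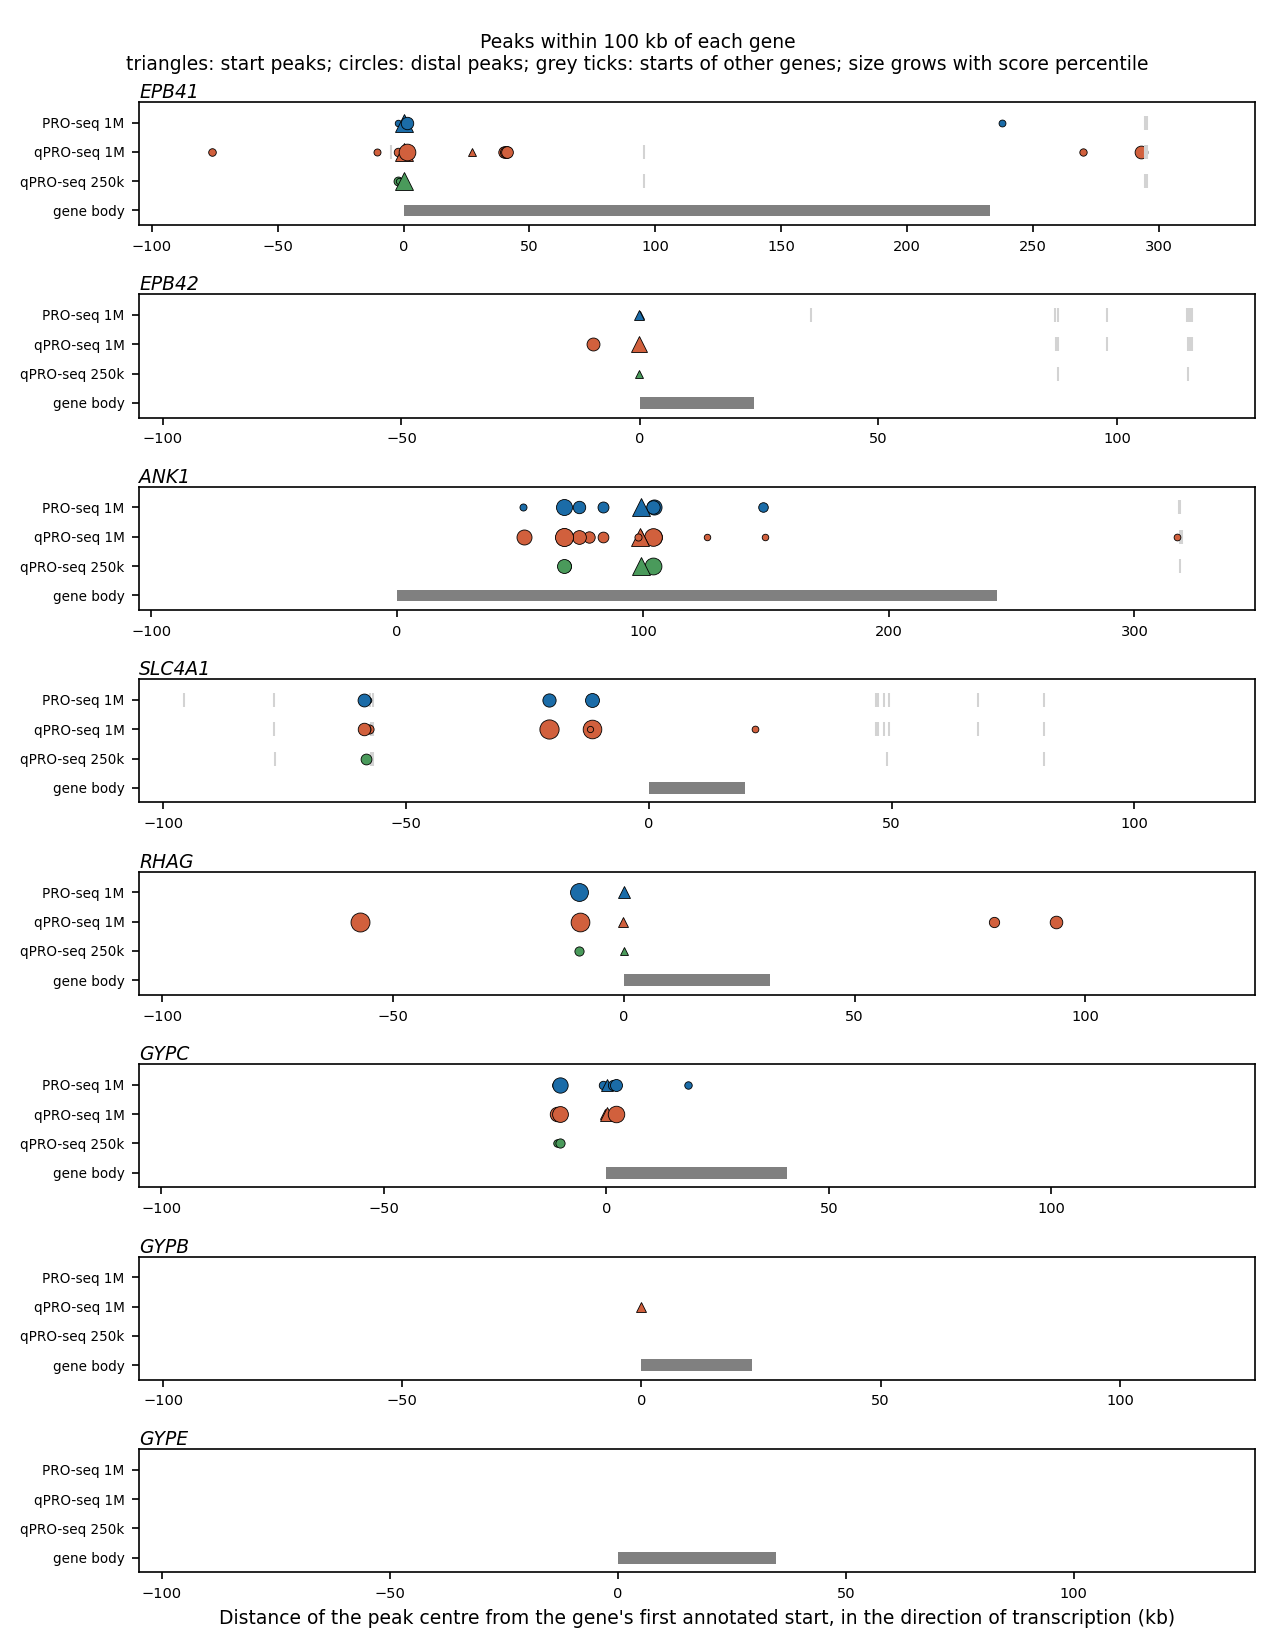
Peaks within 100 kb of each gene (rows are the 3 lists and the gene body) by distance in kb from the first annotated start (x axis), with triangles for start peaks, circles for distal peaks, grey ticks for peaks at starts of other genes, and size rising with score percentile. The ANK1 triangles lie 99.1 kb into the gene with circles on either side, and the SLC4A1 body is bare with circles upstream.

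SLC4A1, without a start peak, had distal peaks in all lists (4, 7 and 1). The nearest upstream region, chr17:44279551-44280130, lay 11.7 kb before the gene in an exon of the lincRNA AC003043.2, at percentile 59.1 in PRO-seq 1M and 95.1 in qPRO-seq 1M. The top region, chr17:44288281-44289010, lay 20.5 kb before the gene between annotated genes, at 53.6 in PRO-seq 1M and 99.6 in qPRO-seq 1M. Neither was listed in qPRO-seq 250k. There were 8644 genes without a start peak in any list. Of these, 39 (0.451%), SLC4A1 included, had a qPRO-seq 1M distal peak within 100 kb at least as high as the 99.6 of the top region. That limit was SLC4A1's own value in the list where it stood highest, so a small share follows from the choice. No such share was taken in the other lists. At or above percentile 95 in qPRO-seq 1M there were 381 of the 8644 (4.41%), against 8.02% of the genes with a start peak in all lists. The region nearest to the gene, chr17:44245991-44246370 on the downstream side, was in qPRO-seq 1M alone at 3.79. In the only region in all lists, chr17:44325211-44327180, the distal peaks reached 50.9, 48.3 and 35.1. That region also held start peaks of SLC25A39, a mitochondrial carrier gene. Distance alone does not tie these regions to SLC4A1, which has other genes within the same window.

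RHAG had 4 distal regions. One, chr6:49646181-49646830, lay 9.51 kb upstream between genes and was in all lists, at percentiles 89.1, 96.0 and 22.7. In each list it stood above the RHAG start peak. Another, chr6:49693681-49694260 in an intron of CRISP2, 57.1 kb upstream, reached 97.7 in qPRO-seq 1M and was in no other list. Both remaining regions lay downstream and were in qPRO-seq 1M alone, at 48.8 and 31.3.

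GYPC had 6 distal regions, none of them in qPRO-seq 1M alone. Those in all lists adjoined each other, chr2:126645201-126645690, 10.5 kb upstream, at percentiles 69.7, 73.3 and 22.8 and chr2:126644561-126645180, 11.0 kb upstream, at 26.7, 63.3 and 9.56. qPRO-seq 250k thus listed these upstream regions while listing no start peak for the gene. In both 1M lists a region 2.10 kb into the gene, chr2:126657771-126658410, stood at 44.1 and 79.1, above the start peak.

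For the genes that had a start peak and a distal peak in a list, the distal peak had the higher percentile for GYPC and RHAG of 4 in PRO-seq 1M, for ANK1, GYPC and RHAG of 5 in qPRO-seq 1M, and for RHAG of 3 in qPRO-seq 250k. Over all genes with both, the share was 27.4%, 36.1% and 33.1%. RHAG was the gene with this order in all lists.

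EPB41 had 10 distal regions, 7 of them in qPRO-seq 1M alone. The top region, chr1:28887811-28888710 in an intron 1.24 kb past the first start, stood at 47.8 in PRO-seq 1M and 80.4 in qPRO-seq 1M. Its peaks all began more than 500 bp but less than 1000 bp past an annotated EPB41 start. A start window of 1000 bp therefore did not count them as distal. The second, chr1:29179801-29180180 in an intron of the neighbouring gene SRSF4, was in qPRO-seq 1M alone at 50.2. The region in all lists, chr1:28884621-28885320, lay 2.22 kb upstream at 2.08, 17.6 and 20.5, low in each. A peak inside EPB41 at chr1:28982491-28983060, at the start of the pseudogene AL138785.1, was listed by qPRO-seq 1M at 79.7 and, as a shorter interval, by qPRO-seq 250k at 26.1. It was not counted as distal. EPB42 had 1 distal region, chr15:43230691-43231040, 9.76 kb upstream, in qPRO-seq 1M alone at 51.4.

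Relative to all distal peaks, those near the 8 genes had median percentiles of 42.8, 43.0 and 22.7, against 33.9, 39.6 and 35.2. The order of the medians thus differed by list, higher for the genes here in both 1M lists and lower in qPRO-seq 250k, where 11 peaks were available.

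A wider list of 43 other genes of the red cell membrane was examined for context. Start peaks were present for 29, 30 and 24 of them, where the share over all genes was 52.9%, 54.5% and 44.0%. Their median percentiles were 74.8, 76.8 and 63.4, against 76.4, 80.7 and 68.2 over all genes with a start peak. The spectrin genes SPTB, SPTAN1 and SPTBN1 had a start peak in all lists, SPTB at 71.4, 70.2 and 47.8. The adducin, dematin, tropomodulin, tropomyosin, MPP1 and stomatin group had 8 of 10 in all lists, with ADD2 and DMTN in the 1M lists alone. Among the paralogues of EPB41, EPB41L2 and EPB41L5 were in all lists and EPB41L1, EPB41L3 and EPB41L4A in none. Of the ankyrin paralogues, ANK3 was in all lists and ANK2 in qPRO-seq 1M alone at 10.9. In the Rh family, RHCE stood at 89.2, 90.0 and 89.4, and RHD, RHBG and RHCG had none. RHCE and RHD are near-identical copies, so which of them the peak belongs to is uncertain.

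Among the antigen carriers, BCAM, CD59 and ABCB6 had a start peak in both 1M lists alone, and KEL, ICAM4, CD44 and ACKR1 had none. Of the transporters and channels, AQP1, SLC14A1 and SLC4A3 had none, while SLC4A2, the widely expressed relative of the anion exchanger, was in all lists at 51.5, 73.5 and 47.0. The top genes of the wider list in qPRO-seq 1M were TPM3 at 95.6, SLC2A1 at 95.4 and SEMA7A at 94.2. TPM3 encodes a tropomyosin, SLC2A1 a glucose transporter and SEMA7A the carrier of the John Milton Hagen antigen. Counted over the 43 genes, 24 were active at a start in all lists (43.1% of all genes were), 13 in none (43.5% of all genes) and 6 in some. The wider list was chosen with earlier results known and was not tested.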

How the data were processed

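The authors deposited 1 list of dREG peaks per group, which the labels name for both replicates. Whether the replicates were pooled, the dREG version, and whether p was adjusted are not given in the sources used here. The submitters' processing notes name fastp 0.20.0, UMI-tools, Bowtie2 2.3.5.1, deepTools 3.1.3 and builds hg38 and GRCh38. Each peak has a score and a p-value as deposited by the authors. The score served to rank peaks within its own list.

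Positions are counted from 1. Genes and starts came from GENCODE release 29 on GRCh38. Overlap needed 1 bp shared. Promoter sequence and names came from the RefSeq tables. Scripts used Python 3.11.15, pandas 2.3.3, numpy 2.4.6, statsmodels 0.14.6, Biopython 1.88 and matplotlib 3.10.9 and were tested on simulated data.

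Named were all 8 genes, their start peaks and top 2 distal regions, the nearest distal region where a gene had no start peak, and from the wider list the genes with no or partial start peaks and the top 3. Other regions and genes named, the motif words and the CpG limit of 0.6 were chosen after values were seen. Of the marker list and the wider list, 2 genes are not reported here, and the counts leave them out. The genes and lists were chosen with earlier results of these data known. Alternatives varied the start window, transcripts, p limit, score, list size, merging, distance and overlap rule.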

Additional observations from a re-analysis of the deposited data

How the results depend on the processing

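Of 136 alternative values, 112 stayed near the value reported and 24 moved. Near meant within 1.5 times for counts and median percentiles, and within the Wilson interval for shares. Reducing each list to 15562 peaks left 3 of the genes (ANK1, EPB41 and EPB42) with a start peak in qPRO-seq 1M and 2 in all lists. It left 12 and 14 distal peaks in the 1M lists, of which 91.7% and 85.7% were overlapped, and raised the overlapped share of qPRO-seq 1M start peaks to 100%. In the same setting 3 of 4 PRO-seq 1M start peaks and 9 of 11 qPRO-seq 250k distal peaks (81.8%) were overlapped, both down from 100%. Keeping peaks that scored no lower than their list's median left 2 genes (ANK1 and EPB41) in PRO-seq 1M, 2 in qPRO-seq 250k and 2 in all lists, with 8, 17 and 2 distal peaks (PRO-seq 1M first, qPRO-seq 250k last) and median start percentiles of 84.1 in PRO-seq 1M and 82.8 in qPRO-seq 250k. A p of 0.01 or less left 2 genes (ANK1 and EPB41) in qPRO-seq 250k and 2 in all lists, with a median percentile of 89.4 in qPRO-seq 250k. Percentiles under the score and p limits were ranked anew within the reduced lists, so these medians are not on the scale used above. Merging peaks within 500 bp gave 15, 25 and 5 distal peaks, and counting only those inside the gene body gave 13, 19 and 5. These settings hold fewer peaks by construction, and the shares over all genes were not measured under them. EPB41 and ANK1 kept a start peak in all lists under every setting run. GYPB, RHAG and GYPC had no start peak in the reduced qPRO-seq 1M list, and EPB42 had none in the reduced PRO-seq 1M list. No paired analysis was possible because each group has 1 list for both replicates, with no replicate number in its columns. Leaving out a replicate was not possible for the same reason. The depth behind each list is unknown, so a missing peak does not show a missing transcript.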
